A study of Homo sapiens with 16 samples.

Results

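Heat shock chaperones of the cytosol and mitochondria were followed in cells labelled HCT116, a human colorectal carcinoma line, given the bisacetamide HMBA, the DOT1L inhibitor EPZ-5676 or both, with or without knockdown of NELFE. The genes were chosen by symbol, and all 40 matched 1 of the 60676 genes counted. They are 2 heat shock transcription factors, the cytosolic HSP70, HSP110 and HSP90 families with their cochaperones, 3 small heat shock proteins, 3 mitochondrial chaperones and 4 subunits of the cytosolic chaperonin. Poly(A) RNA was sequenced in 16 libraries, 2 for each of 8 groups. The groups carried shNELFE with EPZ-5676 plus HMBA, shNELFE with HMBA, shNELFE with EPZ-5676, or shNELFE with DMSO, and shCTL, a control shRNA, with the same treatments. The labels give no dose, exposure time or number of clones, and do not tie a group's libraries to separate cultures, so the p-values describe the spread among these libraries and that spread may be technical. NELFE belongs to the NELF complex, the negative elongation factor that keeps RNA polymerase II paused shortly after it starts a transcript. HMBA, hexamethylene bisacetamide, is known to free the elongation kinase P-TEFb and to induce HEXIM1. EPZ-5676 (pinometostat) blocks the histone H3 lysine methyltransferase DOT1L.

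HSP70 proteins bind unfolded stretches of other proteins and are driven by ATP. J-domain proteins deliver those clients and start ATP hydrolysis, and HSP110 and BAG proteins exchange the nucleotide. HSP90 takes over clients such as kinases and steroid receptors, small heat shock proteins keep unfolded proteins soluble, and chaperonins fold them inside a closed chamber. The transcription factor HSF1 binds heat shock elements and switches on the inducible members of these families, and the HSP70 promoter is a classic site of polymerase pausing, known first from flies.

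The measurements rest on 9 of the 16 libraries, the 8 numbered 2 and shNELFE with EPZ-5676 plus HMBA number 1. That group had 2 libraries in the fit and each other group 1. The spread behind the p-values thus came from the 2 libraries of that group and from how groups departed from additive effects of HMBA, EPZ-5676 and shRNA. The fitted spread, given below as the biological coefficient of variation, was smaller without shNELFE with EPZ-5676 plus HMBA number 1. Much of it therefore went with that library. Pearson's r of log2 CPM (counts scaled to library totals) was 0.929 to 0.996 between these 9 libraries and 0.74 to 0.828 between them and the other 7, all numbered 1. In the 9, NELFE was at 13.0 to 21.6 CPM with shNELFE, against 67.8 to 81.0 CPM with shCTL, and HEXIM1 was at 338 to 385 CPM with HMBA, against 66.8 to 81.6 CPM without it. In the other 7, on a scale set over all 16 libraries, NELFE was at 81.8 to 144 CPM with shNELFE (n = 3) and 99.8 to 281 CPM with shCTL (n = 4), and HEXIM1 was at 46.8 to 73.8 CPM with HMBA (n = 3) and 42.9 to 66.6 CPM without (n = 4), so neither check separated their arms. Of the 8 colorectal epithelium markers, 3 were at 1 CPM or more in each of those 7, with KRT19 and CDX2 down to 0. The 8 nevertheless summed to 7009 to 31550 CPM there, against 4398 to 7668 CPM in the 9 on the same scale. KRT8 alone was at 3780 to 17365 CPM in the 7. Their mesenchymal markers summed to 12.6 to 8263 CPM, with VIM at 0.106 to 2010.5 CPM. These markers thus did not bear out the HCT116 label for all of the 7. Of the same 8 markers, 7 were at 1 CPM or more in each of the 9 libraries, and VIL1 did not pass 0.202 CPM. Mesenchymal markers summed to 62.8 to 104 CPM with HMBA and 34.4 to 64.6 CPM without, and leukocyte markers to 0.512 to 1.1 and 0.169 to 0.324 CPM. PTPRC and CD3E were at or near 0. Mitochondrial genes took 8.87% to 12.2% of counts with HMBA and 6.12% to 6.90% without. The part of these shifts in the HMBA results was not tested. Total counts of the 9 libraries ran from 13428893 to 17867037, and a floor of 3 counts in a library was 0.141 to 0.223 CPM over all 16.

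In the 9 libraries, levels per kilobase of annotated exon spanned a wide range among the chaperone genes. HSP90AB1, the constitutive HSP90, had the highest level per kilobase, with 2555 CPM per kilobase in HMBA libraries and 1415 in the others (means). HSPA8, the constitutive HSP70, followed with 1609 CPM per kilobase with HMBA and 763 without, and HSP90AA1, the stress-responsive HSP90, with 1354 and 700.4. At the low end, HSPA6, a strictly inducible HSP70 that rodents lack, had 0.057 CPM per kilobase with HMBA and 0.413 without, and the lens and muscle small heat shock protein CRYAB had 0 to 3 counts per library and was not tested. All 40 genes together took 3.20% to 3.40% of counts in HMBA libraries, against 2.15% to 2.47% in the others. HSPA8, HSP90AA1 and HSP90AB1 supplied 59.2% to 65.4% of those counts with HMBA and 55.9% to 56.5% without.

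With HMBA, the inducible HSP70 genes HSPA1A and HSPA1B, their J-domain partner DNAJB1, the cochaperone BAG3 and both cytosolic HSP90 genes rose. HSF1, HSF2, BAG1, BAG2, CHORDC1 and DNAJA2 fell, and the scarce HSPA1L and HSPA6 had fewer counts. Of 39 members tested, 25 passed edgeR's quasi-likelihood F-test at a Benjamini-Hochberg adjusted p under 0.05, which is 64.1%, against 63.0% of all 14912 genes tested and so near the share of all genes. By direction, 17 were higher (43.6%, against 31.0% of all genes) and 8 were lower (20.5%, against 32.0%). At least 2-fold rises passed for 7 members (17.9%, against 11.4%) and at least 2-fold falls for 3 (7.69%, against 13.6%). HSPA1L and HSPA6 reached the level of the count filter (0.71 CPM) in libraries without HMBA alone, so they could enter the test only as falls. Among the other 37 members, 23 were called (62.2%), 17 higher (45.9%) and 6 lower (16.2%), with 1 fall of at least 2-fold. The median log2 fold change was 0.22 over the members and 0.02 over all genes. In 22 members the libraries with and without HMBA did not overlap, which held for 50.1% of all genes. With library totals left unscaled the median over all genes moved by -0.26 on the log2 scale, 13 members were then called higher and 13 lower, and 30.2% of all calls were higher, against 49.3% with scaling. Every fold change below is relative to the scaled totals, and in bulk RNA fewer cells with a transcript and less of it per cell cannot be told apart. When all 16 libraries were fitted together, 0 of the members were called for HMBA by edgeR, with 6 at an unadjusted p under 0.05, which 10.4% of all genes reached.

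**Figure D1:**
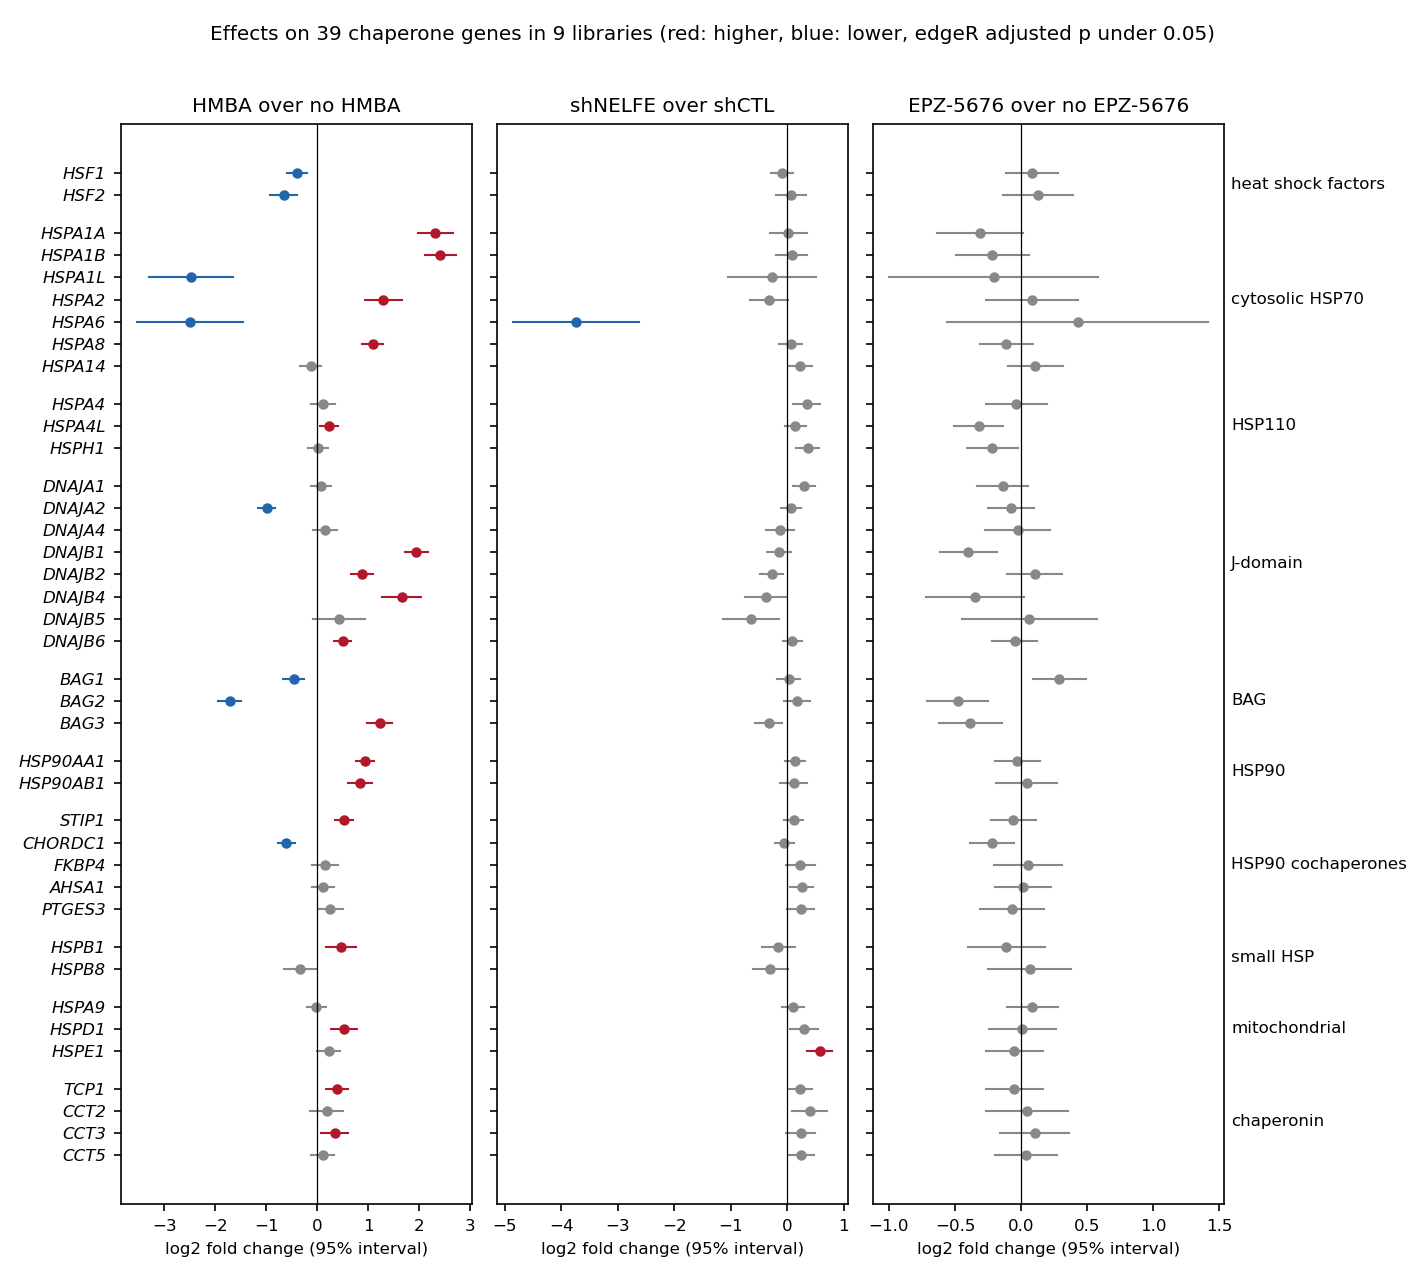
Fitted log2 fold changes with 95% intervals of the 39 tested members, grouped by role, for HMBA over no HMBA, shNELFE over shCTL and EPZ-5676 over no EPZ-5676, each panel on its own scale. For HMBA 25 members passed the threshold (red higher, blue lower), for the NELFE knockdown 2, HSPE1 and the scarce HSPA6, and for EPZ-5676 0.

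The promoters of 7 members are shown because they hold letter matches to units of the heat shock element, in genes that were higher or lower with HMBA. The lines below give bases just before the start site (RefSeq, GRCh38.p14, 5′ to 3′ on the gene's strand), with each GAANNTTC or TTCNNGAA match in capitals, including overlapping ones.
HSPA1A, chr6:31815403-31815542, plus strand: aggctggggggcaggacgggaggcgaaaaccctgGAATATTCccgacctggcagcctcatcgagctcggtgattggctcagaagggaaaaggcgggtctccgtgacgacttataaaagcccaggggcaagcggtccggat
HSPA1B, chr6:31827598-31827737, plus strand: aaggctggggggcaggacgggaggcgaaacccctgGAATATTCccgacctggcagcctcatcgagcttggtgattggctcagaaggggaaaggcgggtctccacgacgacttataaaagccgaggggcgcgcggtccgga
DNAJB1, chr19:14518398-14518537, minus strand: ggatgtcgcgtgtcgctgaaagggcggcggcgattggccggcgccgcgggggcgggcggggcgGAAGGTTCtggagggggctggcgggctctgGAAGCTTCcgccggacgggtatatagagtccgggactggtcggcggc
HSPA8, chr11:123062137-123062372, minus strand: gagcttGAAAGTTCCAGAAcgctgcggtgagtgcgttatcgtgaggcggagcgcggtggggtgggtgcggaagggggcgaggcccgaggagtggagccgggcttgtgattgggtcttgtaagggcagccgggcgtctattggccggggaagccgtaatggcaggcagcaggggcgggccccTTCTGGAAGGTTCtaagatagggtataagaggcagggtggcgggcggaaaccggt
HSP90AA1, chr14:102087045-102087184, minus strand: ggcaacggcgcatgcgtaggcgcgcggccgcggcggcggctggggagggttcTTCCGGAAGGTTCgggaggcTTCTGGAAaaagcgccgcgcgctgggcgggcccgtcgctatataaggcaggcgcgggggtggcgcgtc
CHORDC1, chr11:90223050-90223260, minus strand: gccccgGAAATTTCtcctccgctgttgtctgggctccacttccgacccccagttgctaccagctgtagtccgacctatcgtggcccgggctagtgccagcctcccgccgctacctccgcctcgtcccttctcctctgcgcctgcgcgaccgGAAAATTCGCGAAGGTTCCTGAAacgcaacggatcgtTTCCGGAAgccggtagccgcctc
HSPA6, chr1:161524354-161524539, plus strand: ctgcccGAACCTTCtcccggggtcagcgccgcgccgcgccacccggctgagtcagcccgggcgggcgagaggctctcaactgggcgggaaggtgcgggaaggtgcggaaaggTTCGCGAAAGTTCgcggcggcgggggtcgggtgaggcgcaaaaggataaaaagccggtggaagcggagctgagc
Both motifs read the same on either strand. In windows of 250 bases before to 50 after a start, GAANNTTC was in 37.3% of the 51 windows of 36 matched members, against 6.77% of all 35116 RefSeq windows, and TTCNNGAA in 23.5%, against 7.74%. A run of 3 alternating units, in which the 2 motifs overlap by a shared middle unit, was in 15.7% of member windows and 0.49% of all. Either motif was in 13.5% of all windows. Of the 8 genes with a 3-unit run, HSP90AA1, HSP90AB1, HSPA8, HSPD1 and DNAJB6 rose with HMBA, CHORDC1 and HSPA6 were called lower, and DNAJA1 was not called. Of 14 members with a 2-unit match but no 3-unit run, HSPA1A, HSPA1B and DNAJB1 among them, 8 rose, 2 were called lower and 4 were not called. Of 14 members with neither motif in a window, 4 rose, 3 fell and 7 were not called. Over all genes, 31.0% were called higher with HMBA and 32.0% lower. HSPA6 and HSPA1L, counted here as called lower, could enter the test only as falls. The HSPA1L match lies on the same bases as that of HSPA1A, in overlapping windows on opposite strands. A match describes these letters only, and no binding was measured.

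The heat shock factors were both lower with HMBA. Single libraries are listed within an arm as shNELFE HMBA, shNELFE with both compounds (numbers 1 and 2), shCTL HMBA and shCTL with both compounds, and as shNELFE DMSO, shNELFE EPZ-5676, shCTL DMSO and shCTL EPZ-5676. HSF1, the master regulator of the heat shock response, had 72.9, 76.2, 65.8, 71.0 and 71.9 CPM with HMBA, against 81.4, 96.4, 97.4 and 105 CPM without. The arms did not overlap, and the log2 fold change was -0.40 (SE 0.09, edgeR adjusted p = 0.00214). HSF2, its partner in development and stress, had 11.3, 10.8, 14.6, 12.05 and 13.7 CPM with HMBA, against 20.6, 21.6, 16.9 and 18.9 CPM without (log2 fold change -0.66, SE 0.12). Every HMBA library lay below every library without HMBA for both factors.

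Among cytosolic HSP70 genes, 4 of 7 rose with HMBA, and the 2 scarce ones were called lower. Over all genes, 31.0% were called higher and 32.0% lower. HSPA1B, the main stress-inducible HSP70 (chr6:31827735-31830255), had 2256, 2468, 1747, 2026.5 and 1662 CPM with HMBA, against 389, 340.5, 464 and 349 CPM without. It averaged 2032 ± 339 CPM with HMBA and 386 ± 56.4 CPM without (SD, n = 5 and 4), a fitted 5.32-fold rise (log2 2.41, SE 0.14, edgeR adjusted p = 1.33e-07). The lowest HMBA library stood above all libraries without it, and its fitted rise ranked 496 of 14912 genes. HSPA1A, its near-identical neighbour (chr6:31815464-31817946), had 43.8, 47.7, 35.6, 42.6 and 33.4 CPM with HMBA, against 8.92, 6.2, 11.1 and 7.5 CPM without, a 4.97-fold rise (log2 2.31, SE 0.16). HSPA8, the constitutive HSP70 (chr11:123057489-123063230), had 8645, 6565, 7965, 7881 and 7949.8 CPM with HMBA, against 4022, 3810.0, 3550.0 and 3422 CPM without, a 2.12-fold rise (SE of log2 0.09). All 3 were higher in each of 4 matched pairs of groups. HSPA2, an HSP70 best known from male germ cells, rose 2.45-fold to 4.96 to 8.14 CPM with HMBA, against 2.4 to 2.77 CPM without. HSPA14, a ribosome-associated HSP70, was not called (log2 fold change -0.14, 95% interval -0.34 to 0.07).

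The lower levels in this family were of scarce transcripts, which entered the test through libraries without HMBA alone. HSPA1L, a testis-enriched relative that lies next to HSPA1A on the other strand, had 1, 2, 2, 4 and 4 counts with HMBA, against 19, 18, 21 and 13 counts without. The arms did not overlap, but HSPA1L could enter the test only as a fall, so no fold is drawn from these counts. HSPA6 had 0, 1, 0, 3 and 6 counts with HMBA, against 1, 3, 28 and 28 counts without. The HMBA difference of HSPA6 thus rests on the shCTL libraries, since the shNELFE libraries had only 0 to 3 counts with or without HMBA. HSPA6 did not pass the count filter once shCTL DMSO number 2 or shCTL EPZ-5676 number 2 was left out.

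**Figure D2:**
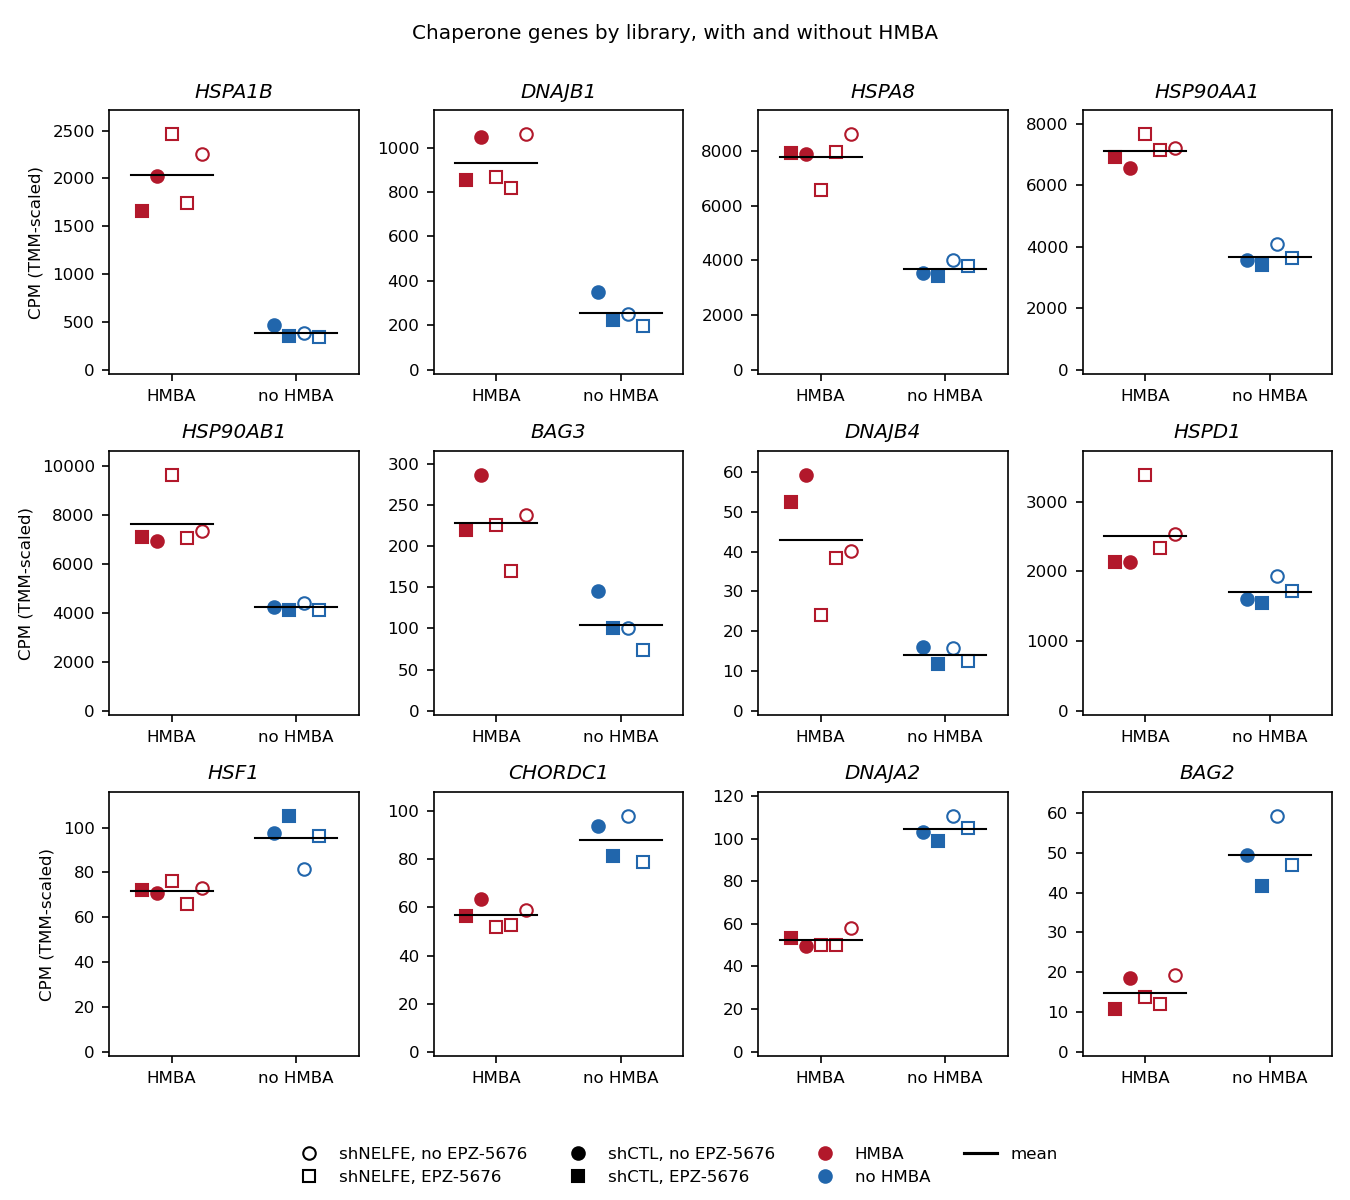
CPM in each of 9 libraries for 12 members, with HMBA at the left (n = 5) and without at the right (n = 4), linear axes and lines at the means. In each panel the arms do not overlap, with HSPA1B at 1662 to 2468 CPM with HMBA and 340.5 to 464 CPM without, and BAG2 at 10.8 to 19.2 and 41.7 to 59.4 CPM.

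The split of counts between HSPA1A and HSPA1B is uncertain. Their transcripts are 2483 and 2521 bases long, 69.9% of the 100-base stretches of HSPA1A occur in HSPA1B, and their promoter windows match at 277 of 301 alignment columns. HSPA1A took 1.79% to 2.34% of the counts of the pair in the 9 libraries, against 48.5% to 54.8% in the other 7. Since that share hardly moved within the 9, the HSPA1A rise with HMBA cannot be counted as separate from that of HSPA1B. The summed pair does not depend on that split, and it was at 1695 to 2516 CPM with HMBA, against 347 to 475 CPM without. In the 7 libraries outside the fit, HSPA1B alone was at 261 to 385 CPM with HMBA (n = 3) and 247 to 426 CPM without (n = 4), on the scale over all 16. Likewise HSPA8 was at 2109.6 to 3690.2 CPM with HMBA and 2453 to 3250.5 CPM without there, and DNAJB1 at 221 to 273 and 175.5 to 308 CPM, with overlapping arms for all 3 genes. Those arms mix libraries of unlike profiles, so the overlap cannot decide whether HMBA moved these genes there.

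**Figure D3:**
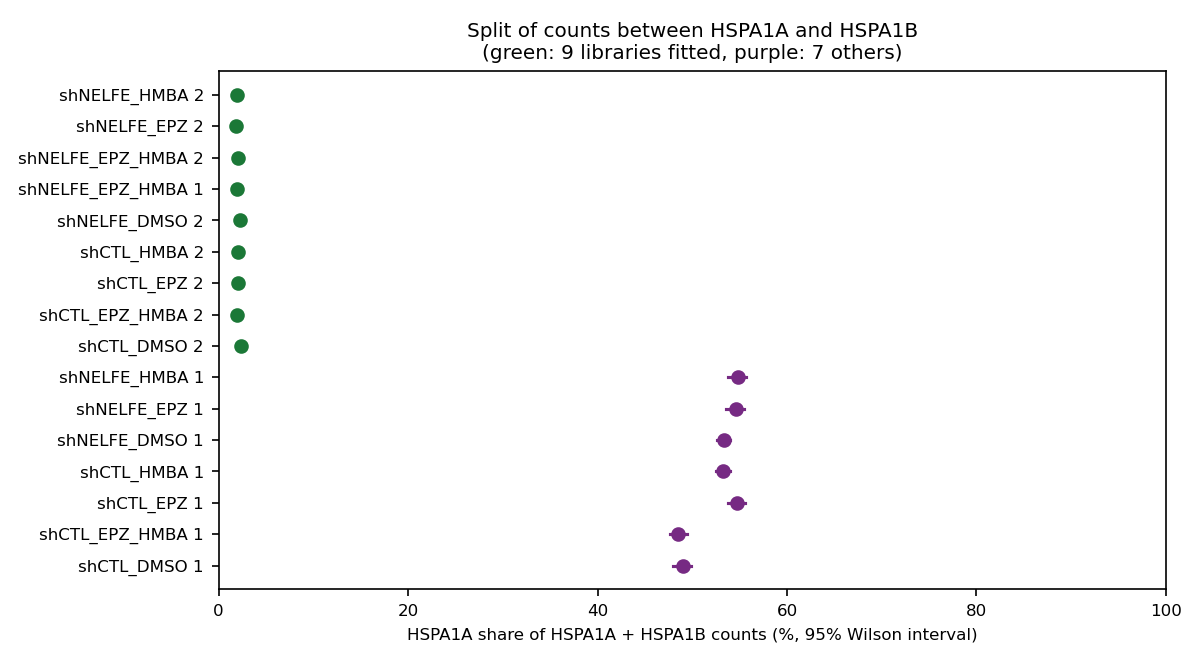
HSPA1A as a percentage of HSPA1A plus HSPA1B counts in each of 16 libraries, with 95% Wilson intervals that cover counting error only. The 9 libraries of the fit lie at 1.79% to 2.34% and the other 7 at 48.5% to 54.8%.

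The HSP110 family, nucleotide exchange factors for HSP70, moved little. HSPA4L had 35.7, 29.5, 27.7, 31.5 and 27.0 CPM with HMBA, against 31.6, 23.9, 27.7 and 22.0 CPM without. The arms overlapped, and the rise of 1.17-fold had an edgeR adjusted p of 0.0353, a call lost with unscaled totals (log2 -0.04) and when any of the 7 libraries other than shNELFE with both compounds was left out. HSPH1, the stress-inducible HSP105, had a log2 fold change of 0.01 (95% interval -0.19 to 0.21), and HSPA4 one of 0.11 (-0.12 to 0.34).

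J-domain cochaperones went both ways, with 4 of 8 higher and 1 lower, against 31.0% and 32.0% of all genes. DNAJB1, the inducible HSP40 that works with HSPA1A and HSPA1B, had 1063, 869, 819.9, 1048 and 852 CPM with HMBA, against 253, 196, 352 and 223 CPM without. It rose 3.84-fold (log2 1.94, SE 0.10, edgeR adjusted p = 1.03e-07), the smallest adjusted p among the members. DNAJB4, a close relative of DNAJB1, had 40.1, 24.2, 38.5, 59.4 and 52.6 CPM with HMBA, against 15.7, 12.5, 16.1 and 11.7 CPM without, a 3.14-fold rise (log2 1.65, SE 0.17). With HMBA, the shCTL libraries lay above the shNELFE libraries for DNAJB4. DNAJB2 and DNAJB6, suppressors of polyglutamine aggregation, rose 1.84-fold and 1.41-fold with no overlap. DNAJA2, a constitutive partner of HSPA8, had 58.1, 50.3, 49.9, 49.7 and 53.2 CPM with HMBA, against 111, 105, 103 and 98.9 CPM without. That is a log2 fold change of -0.999 (SE 0.08, edgeR adjusted p = 1.35e-06), opposite to HSPA8 itself. DNAJA1, DNAJA4 and DNAJB5 were not called, with log2 fold changes of 0.06 to 0.42.

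The 3 BAG cochaperones, which bind the HSP70 ATPase domain, were all called, 1 higher and 2 lower. HMBA called 63.0% of all genes, so 3 of 3 does not set this class apart. BAG3, which routes HSP70 clients to autophagy, had 238, 225, 169.5, 287 and 220.0 CPM with HMBA, against 100.2, 73.5, 145 and 100.1 CPM without, a 2.33-fold rise (log2 1.22, SE 0.11). BAG2, an inhibitor of the HSP70 ubiquitin ligase STUB1, had 19.2, 13.8, 12.1, 18.5 and 10.8 CPM with HMBA, against 59.4, 47.0, 49.5 and 41.7 CPM without. Its log2 fold change of -1.72 (SE 0.10, edgeR adjusted p = 2.16e-07) was the largest fall among members above 10 CPM. BAG1, which links HSP70 to the proteasome, had 39.7, 44.1, 40.6, 34.1 and 41.8 CPM with HMBA, against 47.7, 59.4, 46.1 and 64.8 CPM without (log2 fold change -0.47, SE 0.09). None of the 3 genes had overlapping arms, as was so for 50.1% of all genes.

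Both cytosolic HSP90 genes rose with HMBA. HSP90AA1 (chr14:102080738-102139699) had 7222, 7676, 7142, 6563 and 6914 CPM with HMBA, against 4101, 3623, 3565 and 3412 CPM without, a 1.92-fold rise (log2 0.94, SE 0.08). HSP90AB1 (chr6:44246166-44253888) had 7331, 9643, 7054, 6947 and 7096 CPM with HMBA, against 4393, 4127, 4229.5 and 4113 CPM without, a 1.78-fold rise (log2 0.83, SE 0.11). The arms were apart for both, and the edgeR adjusted p was 2.31e-06 for HSP90AA1 and 5.45e-05 for HSP90AB1. Of their 5 cochaperones, STIP1 rose, CHORDC1 fell, and the other three were not called. STIP1, which hands clients from HSP70 to HSP90, had 630.2, 660.2, 574, 578 and 587 CPM with HMBA, against 454, 429, 423 and 382 CPM without, a 1.43-fold rise (log2 0.52, SE 0.08). CHORDC1, an HSP90 cochaperone whose promoter carries the longest run of units shown above, had 59.0, 51.7, 52.5, 63.5 and 56.6 CPM with HMBA, against 98.2, 78.9, 93.8 and 81.5 CPM without (log2 fold change -0.61, SE 0.08, edgeR adjusted p = 4.18e-05). FKBP4, an immunophilin of steroid receptor complexes, AHSA1, the activator of the HSP90 ATPase, and PTGES3 (p23) had log2 fold changes of 0.14, 0.11 and 0.25, with edgeR adjusted p of 0.304, 0.345 and 0.0669.

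HSPB1 (HSP27), the most abundant small heat shock protein here, had 482, 521, 363, 458 and 410.2 CPM with HMBA, against 294, 272, 404 and 366 CPM without. It was called (1.38-fold, log2 0.46, SE 0.13, edgeR adjusted p = 0.0113), but the arms overlapped, and the call was lost without shNELFE DMSO number 2, without shNELFE EPZ-5676 number 2 and with unscaled totals. The HSPB1 product of HMBA and shRNA was 0.54 (95% interval 0.047 to 1.025, edgeR adjusted p = 0.879), so a difference between shRNA arms was not established. HSPB8, the BAG3 partner, had 4.22 to 4.80 CPM with HMBA and 4.69 to 7.17 CPM without (edgeR adjusted p = 0.0553).

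Mitochondrial chaperones did not move as a set. HSPD1 (HSP60), the matrix chaperonin, had 2539.8, 3388, 2341, 2139 and 2132 CPM with HMBA, against 1932.5, 1716, 1600.5 and 1539 CPM without, a 1.44-fold rise (log2 0.53, SE 0.12, edgeR adjusted p = 0.0023). Its lid HSPE1 (HSP10) had 1.16-fold higher levels (95% log2 interval 0.00069 to 0.44, edgeR adjusted p = 0.0742). HSPA9 (mortalin), the matrix HSP70 of the protein import motor, had a log2 fold change of -0.02 (95% interval -0.21 to 0.17). Among cytosolic chaperonin subunits, TCP1 had 612, 712, 555, 515 and 518 CPM with HMBA, against 497, 421, 429 and 405 CPM without, a 1.31-fold rise with no overlap (edgeR adjusted p = 0.00478). CCT3 rose 1.26-fold, with 1020.0, 1426, 953, 876 and 894.5 CPM against 817, 841, 751 and 769 CPM, and CCT2 and CCT5 were not called (log2 0.18 and 0.10). The calls of TCP1 and CCT3 were lost with unscaled totals, and that of CCT3 also without any of 5 of the libraries, namely shNELFE DMSO, shCTL EPZ-5676, shNELFE EPZ-5676, shCTL HMBA and shNELFE HMBA, all number 2.

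For the NELFE knockdown, HSPE1 rose, and HSPA6 had few or no counts with shNELFE. The test called 2 of 39 members (5.13%, against 2.37% of all genes), HSPE1 higher (0.764% of all genes) and HSPA6 lower (1.60% of all genes). HSPA6 reached the filter level in 2 shCTL libraries alone, so it could enter only as lower and its call supports nothing, and of the other 38 members 1 was called (2.63%). An unadjusted p under 0.05 was reached by 15 members, against 19.4% of all genes. HSPE1 (chr2:197499994-197503457) had 342, 367, 294, 285 and 245 CPM with shNELFE, listed as HMBA, both compounds (numbers 1 and 2), DMSO and EPZ-5676, against 206, 208, 198 and 197 CPM with shCTL. The arms did not overlap, and shNELFE was higher in 4 of 4 matched pairs, by 1.49-fold (log2 0.57, SE 0.10, edgeR adjusted p = 0.0146). The HSPE1 span lies inside that annotated for HSPD1 on the other strand, and the strand setting of the counts is not given, so reads of this pair cannot be told apart with certainty. HSPD1, which shares a bidirectional promoter with HSPE1, had 2383 ± 649 CPM with shNELFE and 1853 ± 327 CPM with shCTL (SD, n = 5 and 4; log2 fold change 0.30, edgeR adjusted p = 0.192). HSPA6 (chr1:161524540-161526910) had 0, 1, 0, 1 and 3 counts with shNELFE, against 3, 6, 28 and 28 counts with shCTL. Over the libraries without HMBA 4 counts stood against 56, all of the latter from 2 shCTL libraries, so no fold is given. HSPA6 has a near-identical copy, HSPA7, so the source of these few reads is uncertain.

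**Figure D4:**
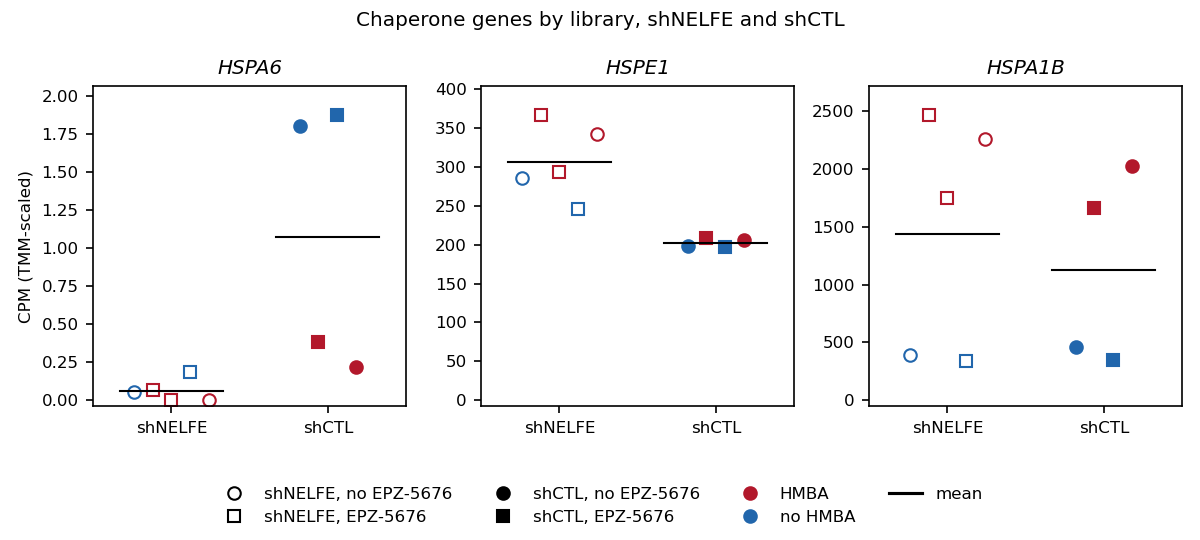
CPM of HSPA6, HSPE1 and HSPA1B in each of 9 libraries, shNELFE at the left (n = 5) and shCTL at the right (n = 4), on linear axes with lines at the means. HSPE1 runs from 245 to 367 CPM with shNELFE and 197 to 208 CPM with shCTL, HSPA6 stays at or below 0.186 CPM with shNELFE, and HSPA1B separates by HMBA within both arms.

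HSPA1B and HSPA1A, whose fly counterparts are known for paused polymerase, had no call for the knockdown. HSPA1B averaged 1440 ± 1016 CPM with shNELFE and 1125.5 ± 844 CPM with shCTL, where the SD spans HMBA and no HMBA, and its log2 fold change was 0.08 (95% interval -0.20 to 0.36). That of HSPA1A was 0.02 (-0.31 to 0.34). Besides HSPA6, 6 tested members had no overlap between shNELFE and shCTL, against 3.17% of all genes. They were AHSA1, CCT2, CCT5, FKBP4, HSPA4 and HSPE1, each higher with shNELFE. The knockdown calls depend on single libraries. Without shNELFE with both compounds number 1, 6 members were called higher (CCT2, DNAJA1, HSPA4, HSPD1, HSPE1 and HSPH1) and 2 lower (BAG3 and HSPA6), while the share of all genes called grew to 13.1% in that fit. There HSPH1 had a log2 fold change of 0.33 (SE 0.07, edgeR adjusted p = 0.0062). The call of HSPE1 was lost without any 1 of 5 libraries (shNELFE DMSO, shCTL EPZ-5676, shCTL HMBA, shNELFE HMBA and shCTL with both compounds, all number 2), with an adjusted p of 0.0516 to 0.104. HSPA6 could not be tested without shCTL DMSO number 2 or shCTL EPZ-5676 number 2.

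EPZ-5676 moved 0 of the 39 members past the threshold in edgeR, against 0.201% of all genes, and 7 members had an unadjusted p under 0.05, against 11.4% of all genes. DESeq2 called 1 member higher (BAG1) and 4 lower (BAG2, BAG3, DNAJB1 and HSPA4L), with 2.85% of all genes called. In the edgeR fit BAG2 had a log2 fold change of -0.48 (95% interval -0.71 to -0.25, adjusted p = 0.107) and DNAJB1 one of -0.40 (-0.62 to -0.18, 0.139). HSPA4L had -0.32 (-0.51 to -0.14, 0.161) and BAG3 -0.39 (-0.62 to -0.15, 0.195). These genes were lower with EPZ-5676 in each of 4 matched pairs, though none passed the threshold. Members with fitted changes near 0 also were, such as HSPD1 (log2 0.01, edgeR adjusted p = 0.991) and HSPA4 (-0.04, 0.942). The pairs thus do not set these genes apart. Without shNELFE with both compounds number 1, edgeR called 6 members lower, namely BAG2, BAG3, DNAJB1, HSPA1A, HSPA1B and HSPA4L, with 3.80% of all genes called and 2.44% called lower. HSPA1B then had a log2 fold change of -0.32 (SE 0.06, adjusted p = 0.0149), against -0.22 (95% interval -0.50 to 0.06) with that library in.

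No member had a product term past the threshold in edgeR. Over all genes it called 0.0134% for HMBA by shRNA, 0% for EPZ-5676 by shRNA and 0% for EPZ-5676 by HMBA. DESeq2 called 0 members in each, with 37, 2 and 2 of 14912 genes called. At an unadjusted p under 0.05 edgeR gave 2, 0 and 0 members, against 623, 114 and 385 of 14912 genes. For HSPA1B the HMBA by shRNA product was 0.42 (95% interval -0.09 to 0.93) and for HSPA8 it was -0.19 (-0.61 to 0.23), on the log2 scale, so moderate differences in the HMBA response between shNELFE and shCTL cells remain within the intervals. DNAJA1, an HSP70 partner of the type I J-domain class, had 445, 405, 362, 312 and 297 CPM with HMBA and 386, 331, 333 and 314 CPM without. HMBA gave a higher DNAJA1 level in both shNELFE pairs and a lower one in both shCTL pairs, and the product was 0.29 (95% interval -0.07 to 0.65, edgeR adjusted p = 0.879).

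Other protein quality control genes, from lists that hold none of the 40, gave the surroundings for HMBA. For HMBA the test called 63.0% of all genes, 31.0% higher and 32.0% lower. Of 37 tested genes among other cytosolic and mitochondrial chaperones, 9 rose and 11 fell, a called share of 54.1% with a median log2 fold change of -0.02. HSPA12A, a distant HSP70 relative, had 66.2 ± 6.80 CPM with HMBA and 25.1 ± 0.849 CPM without, while the ribosome-associated J-domain protein DNAJC2 had 20.6 ± 3.05 and 60.3 ± 7.84 CPM (SD, n = 5 and 4). Of 29 other cochaperones and regulators, 9 rose and 5 fell (48.3% called), and FKBP5, an immunophilin of steroid receptors, rose at log2 0.66. Of 12 mitochondrial protease and import genes, 0 rose and 3 fell (25.0% called), with HTRA2 at -0.59 and TIMM23 at -0.42. Of 19 proteasome and autophagy receptor genes, 10 rose and 3 fell (68.4% called), near the share of all genes. The autophagy receptor SQSTM1 was at 804.5 ± 121 CPM with HMBA and 322 ± 24.5 CPM without. For the NELFE knockdown, TOMM34, an HSP70 and HSP90 cochaperone of import, was the 1 gene called in these lists (log2 0.55, SE 0.10, edgeR adjusted p = 0.0206). The knockdown test called 2.37% of all genes. EPZ-5676 called 0 in the lists, against 0.201% of all genes.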

How the data were processed

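The 16 libraries of poly(A) RNA were made with a stranded TruSeq mRNA kit, per the labels' protocols, and grouped by their titles. The deposited table holds the authors' counts of reads per gene, not normalized, under Ensembl gene identifiers. The build was hg38 and the tools named are HTSeq 0.6.1p1, Cufflinks 2.1.1, STAR 2.4.0b and edgeR, without roles, per the submitters' processing notes. No annotation release or strand setting is stated, and coordinates are those of GENCODE release 29. There were 0 identical pairs of libraries and 0 columns of no sample.

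The fit used edgeR 4.0.16 in R 4.3.3 on 9 libraries, with TMM scaling, filterByExpr, 1 additive term each for HMBA, EPZ-5676 and shRNA, a quasi-likelihood F-test over 14912 genes, 5 residual degrees of freedom and Benjamini-Hochberg adjustment at 0.05. Product terms were added one at a time, leaving 4 residual degrees of freedom. The biological coefficient of variation was 0.135, and 0.081 without shNELFE with both compounds number 1. Intervals at 95% come from the SE implied by the F-statistic, and those of count shares are Wilson intervals. Levels are CPM on TMM-scaled totals of the 9 libraries unless stated, and r used log2 CPM with a prior count of 2. PCR reads are not independent molecules, so floors and Wilson intervals hold counting error alone. Scripts were tested on simulated data.

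Values of each library are printed for members called in a test with the largest fold changes of their role class and for a fixed set of core chaperones, and from each other list up to 2 called genes per direction. A result for 1 gene of those lists is not reported here. The 40 members, the 9 libraries and the lists were chosen with earlier results of these data known. Alternatives were RLE scaling, unscaled totals, no filter, DESeq2 1.42.0, the replicate number as a block, all 16 libraries, and leaving out each of the 9 libraries.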

Additional observations from a re-analysis of the deposited data

Results flagged for a closer look

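In the library of shNELFE with EPZ-5676 plus HMBA number 1, 3 members stood far above the other HMBA libraries, by the gap to the nearest library as a share of the range. CCT3 was at 1426 CPM there, against 876 to 1020.0 CPM in the other HMBA libraries, HSP90AB1 at 9643 CPM, against 6947 to 7331 CPM, and HSPA9 at 815 CPM, against 617 to 660.2 CPM. These were 3 of 78 arms tested over 39 genes, where chance would give about 1 in 20 arms, so the number of flags is not above that rate. All 3 were in that library.

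The 7 libraries outside the fit held signals of other members at more than 10 times the highest level of the 9, a limit set after the data were seen. CRYAB was at 75.1 CPM in shCTL with EPZ-5676 plus HMBA number 1 and at 69.6 CPM in shCTL DMSO number 1, against at most 0.191 CPM in the 9. HSPA1A was at 487 CPM in shNELFE DMSO number 1, against at most 46.5 CPM in the 9, and its counts cannot be separated with certainty from those of HSPA1B. HSPB8 was at 577 CPM in shNELFE DMSO number 1 and at 523 CPM in shCTL HMBA number 1, against at most 6.93 CPM in the 9. All levels in these sentences are on the scale over 16 libraries.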

How the results depend on the processing

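For HMBA, 17 members higher and 8 lower became 13 and 13 with unscaled totals and 0 and 0 with all 16 libraries, with or without the replicate block. Over all genes, 9392 of 14912 were called in the main fit, 9233 of 14912 with unscaled totals and 0 of 15853 with all 16 libraries. Leaving out 1 library gave 14 to 20 higher and 7 to 9 lower members, with 8035 of 14774 to 10443 of 14808 genes called. Signs turned for HSPB1 (log2 -0.12), HSPA2 (-0.018) and HSPA1A (-0.36) with all 16 libraries and for HSPA4L (-0.039) with unscaled totals. The cause was not tested. RLE scaling and DESeq2 kept all 25 calls, and no filter lost that of HSPA4L. For the NELFE knockdown, 1 higher and 1 lower became 3 higher without the filter and 2 lower with unscaled totals. They became 6 higher and 3 lower with DESeq2 and 6 higher and 2 lower with the replicate block. With all 16 libraries they became 0 and 0, with and without the block. Calls over all genes moved too, from 353 of 14912 to 767 of 27026 without the filter and 420 of 14912 unscaled. DESeq2 called 1424 of 14912 genes, and the block fit 1920 of 15573. Leaving out 1 library gave 0 to 6 higher and 0 to 2 lower members, with 66 of 14838 to 1940 of 14808 genes called. For EPZ-5676, 0 members became 2 lower without the filter, 1 higher and 4 lower with DESeq2, and 7 lower with the replicate block. Over all genes, 30 of 14912 called became 248 of 27026, 425 of 14912 and 577 of 15573 in those fits. Leaving out 1 library gave 0 higher and 0 to 6 lower members, with 1 of 14855 to 563 of 14808 genes called. The 3 product terms kept 0 called members throughout.

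In the 9 libraries the block takes up shNELFE with both compounds number 1 alone. It gave 29 HMBA calls among members, 20 higher and 9 lower, with 10718 of 15573 genes called. Replicate numbers share no stated batch, and over 28 pairs of groups the differences between numbers correlated at 0.0938 to 0.977 (median 0.495). The limit was that every pair pass 0.1, and 27 did, so the numbers were not used as pairs. In every group but shNELFE with both compounds, number 1 lies outside the fit and has an unlike profile. These correlations thus cannot tell structure shared by number from those unlike profiles. HSPA6, HSPA1L and CRYAB are limited by depth.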
